A study of Mus musculus with 16 samples.

Results

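Collagen genes were followed in the inner ear of Tg1MDW/1MDW and WT mice. Members were chosen by name alone: a probeset counted where the platform table gave it 1 gene symbol made of Col, a number, a and a number, and the probeset with the highest mean over all 16 arrays stood for its gene. This took 46 probesets and gave 44 genes, of 19937 genes named by 1 symbol and 34760 probesets in all. The mice were FVB/NCrl-Tg(GFAP-Mir183,Mir96,Mir182)1MDW homozygotes and FVB/NCrl wild types. In the homozygotes a human GFAP promoter was used to direct a miRNA cluster (Mir183, Mir96 and Mir182) to supporting and glial cells. This is 1 transgenic line, with 1 integration of its construct. By in situ hybridization the paper showed miR-182 in these cells, and in spiral limbus cells, at P18. The paper could not find clear differences from WT at P5. RNA came from the microdissected organ of Corti (OC) at P5 (5 Tg1MDW/1MDW and 5 WT arrays) and from the total cochlea without the vestibular labyrinth at P18 (3 Tg1MDW/1MDW and 3 WT arrays). Age and tissue therefore change together between P18 and P5 and cannot be told apart. Samples were grouped by title, which is where the labels give the ages of 5 and 18 days; other label fields conflict with the titles in age, tissue and genotype. The titles call the replicates biological, but whether an array holds 1 animal or a pool is not given in the sources used here. The p-values rest on the spread among these samples, and how far that is a spread among single animals is not known.

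Collagens are secreted proteins whose alpha chains wind around each other in a long helix. The fibril-forming collagens build cables, type IX and its relatives decorate the surface of such cables, and type IV forms the sheets of basement membranes. Type VI makes beaded filaments around cells, and types VIII and X make open lattices. In the cochlea, types II, IX and XI lie in the tectorial membrane, the gel that rests on the hair cells, and type IV surrounds epithelia, vessels and nerve. Type I dominates bone, and type X marks the enlarged chondrocytes of cartilage that turns into bone. In humans, mutations in genes of types II, IV, IX and XI are causes of hearing loss.

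The 3 mature miRNAs of the transgene are shown because the construct was made to express them. Sequences are from RefSeq (GRCm38.p6, minus strand of chromosome 6), 5′ to 3′, with the seed, bases 2 to 8, in capitals.
mmu-miR-183-5p: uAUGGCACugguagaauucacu
mmu-miR-96-5p: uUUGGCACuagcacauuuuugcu
mmu-miR-182-5p: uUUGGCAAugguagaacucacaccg
The 3 seeds all differ, and share a stretch of 5 bases. Seed sites in collagen transcripts were not analysed here.

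Promoter letters are shown for 5 collagens named in the results below. They are the 30 bases from 40 to 11 bases before the annotated start, where a TATA box would lie. They are from RefSeq (GRCm38.p6, plus strand) and the capitals mark TATAAA.
Col10a1, chr10:34389941-34389970: gaaaacagTATAAAtactccagggcagccg
Col9a1, chr1:24177570-24177599: cctccttcagtgtgaccttgttagttttga
Col9a2, chr4:121039526-121039555: tgggcacagaagatccgcccctgaccgggc
Col11a2, chr17:34039098-34039127: gcccgccccttctgtcccactgtgccctga
Col1a2, chr6:4505578-4505607: tcccagcactgagtcccgggcccctagccc
Col10a1 holds the motif in this stretch and the other 4 do not, though the 300-base window of Col11a2 holds it elsewhere. Promoter windows of 300 bases could be matched for 35 of the 44 genes, and 5 of their 38 windows (13.2%) held TATAAA on either strand, against 13.6% of all 32851 windows. The core ACAAAG, which SOX proteins bind, was in 5 of the 38 (13.2%), against 18.7% of all. Col10a1, Col3a1 and Col17a1 were the collagens with both motifs. Col1a1, Col2a1, Col9a3 and Col26a1 were among the genes without a window. A match is a description of letters and not a site.

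The deposited values are normalized log2 signals. Signals of different probesets are not comparable, so each gene is compared between groups only. Lower quartiles of the arrays were 4.82 to 5.05 at P5 and 4.54 to 4.61 at P18, and medians were 6.51 to 6.63 and 6.33 to 6.36. The ages did not overlap in either, and the P18 minus P5 changes as deposited include that offset. No collagen fell below 4.99 on any array. The transgene's own elements (Mir183, Mir96, Mir182 and the Prm1 part of the construct) were higher on every Tg1MDW/1MDW array. Their mean was 7.64 to 8.48 in Tg1MDW/1MDW, against 4.43 to 4.96 in WT, at P5. At P18 it was 7.65 to 7.77 in Tg1MDW/1MDW, against 4.24 to 4.42 in WT. Arrays of a group correlated at 0.980 to 0.995. Y-linked genes were high on 1 of 5 Tg1MDW/1MDW and 4 of 5 WT arrays at P5, with list means of 8.61 to 8.96 on these and 3.90 to 4.06 on the others. At P18 the means lay between, at 7.65 to 7.66 in Tg1MDW/1MDW and 7.22 to 7.34 in WT. Among organ of Corti markers at P5, the hair cell genes Myo6 and Slc26a5 read 10.34 and 8.75 in WT, and the supporting cell gene Sox2 10.04. They were picked from lists of 10 hair cell and 9 supporting cell genes. The hair cell list mean was 7.92 to 8.09 in Tg1MDW/1MDW and 7.89 to 8.12 in WT. The supporting cell list mean was 9.42 to 9.79 in Tg1MDW/1MDW and 9.43 to 9.78 in WT. Tests come from a limma fit of 4 group means over all probesets, with Benjamini-Hochberg adjustment of the p-values, and a gene is called at an adjusted p under 0.05.

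The widest collagen differences lay between the P18-cochlea and the P5-OC. In WT the 3 widest were those of Col9a1 (-3.09), Col1a1 (2.89) and Col26a1 (-2.45). In WT, 25 of the 44 genes were called, 6 higher and 19 lower at P18, where 50% of all probesets were called (19.8% higher, 30.2% lower). With quantile normalization repeated, 10 were higher and 18 lower in WT, and the median of all probesets shifted to 0.09 in WT, against -0.06 as deposited. Among genes named by 1 symbol the shares were 25% higher and 25.1% lower. In Tg1MDW/1MDW, 31 of 44 were called, 5 higher and 26 lower, with 54.1% of all probesets called (21.1% higher, 33.0% lower) and 28.4% higher and 26.8% lower among named genes. The median collagen change was -0.37 in Tg1MDW/1MDW and -0.26 in WT, against -0.11 and -0.06 over all probesets. With a fold change of at least 2 as well, 1 collagen was higher and 8 were lower in WT, where 7.22% of named genes were higher and 4.74% lower (5.50% and 11.5% of all probesets). In Tg1MDW/1MDW that count was 2 higher and 9 lower, with 8.12% and 3.65% of named genes (5.93% and 10.8% of all probesets). RNA of a whole tissue cannot tell fewer cells of a type from less RNA per cell.

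**Figure D1:**
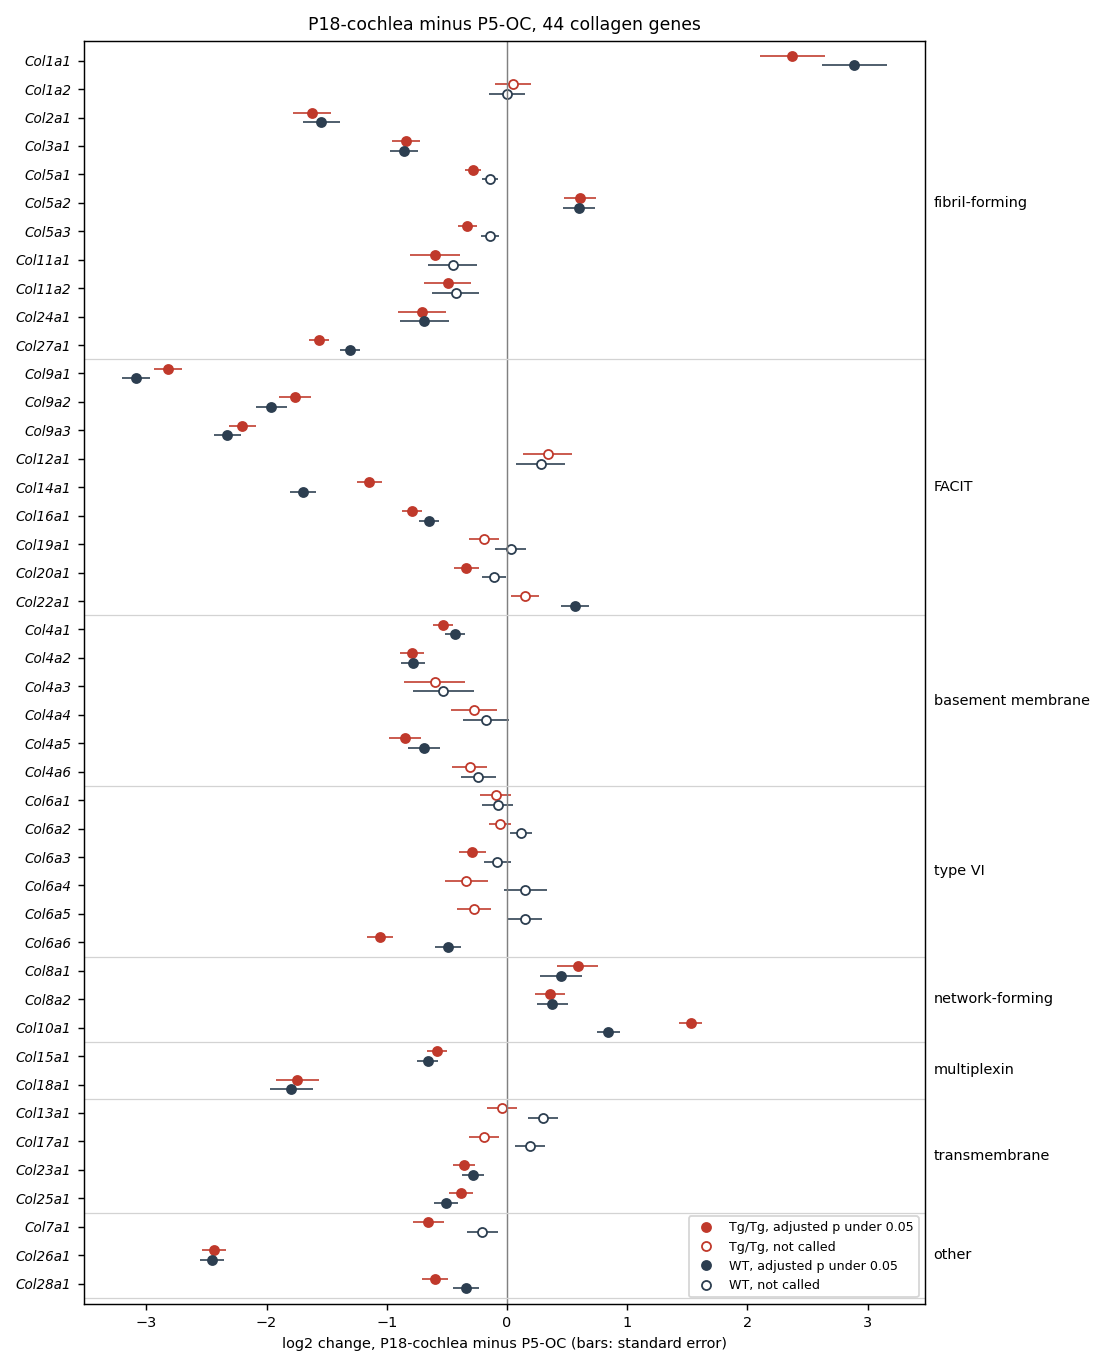
Log2 change of the 44 collagen genes, P18-cochlea minus P5-OC, by class, for Tg1MDW/1MDW (red) and WT (dark), with filled points at an adjusted p under 0.05 and bars of 1 standard error. The 3 chains of type IX and Col26a1 lie farthest to the left and Col1a1 farthest to the right in both genotypes.

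All 3 chains of type IX, which coats type II fibrils, were lower at P18. Col9a1 read 8.87, 8.73 and 8.91 in the P18-cochlea of WT, against 11.96, 12.27, 11.77, 11.80 and 11.82 in the P5-OC of WT. This is a change of -3.09 (standard error 0.12, adjusted p = 7.4e-12), or 8.49-fold. The groups lie far apart, and the same held for Tg1MDW/1MDW, where Col9a1 read 9.0, 9.0 and 8.87 at P18 and 11.93, 11.92, 11.77, 11.68 and 11.56 at P5 (-2.82, standard error 0.12, adjusted p = 2.5e-11). Col9a3 averaged 8.31 ± 0.07 at P18 (SD, n = 3) and 10.63 ± 0.20 at P5 (SD, n = 5) in WT, a change of -2.33 (adjusted p = 1.36e-10 in the limma fit). Col9a2 averaged 8.37 ± 0.05 at P18 (SD, n = 3) and 10.33 ± 0.22 at P5 (SD, n = 5) in WT, a change of -1.96 (adjusted p = 5.82e-09 in the limma fit). In Tg1MDW/1MDW these changes were -2.20 for Col9a3 and -1.76 for Col9a2. No array of P18 reached any array of P5 for any of the 3 chains. Col9a3 overlaps Tcfl5 in the annotation.

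Type II collagen, the main fibril of cartilage and of the tectorial membrane, was lower too. Col2a1 read 10.38, 10.48 and 10.40 in the P18-cochlea of WT, against 11.87, 12.49, 11.69, 11.88 and 11.90 in the P5-OC (-1.55, standard error 0.15, adjusted p = 5.19e-07). In Tg1MDW/1MDW it read 10.11, 10.18 and 10.22 at P18, against 11.92, 12.09, 11.80, 11.70 and 11.46 at P5 (-1.62, adjusted p = 3.27e-07). Both genotypes had separate groups, with the 1 high WT array at P5 adding to the spread. The type XI chains, which set the width of type II fibrils, differed less and by calls that were not the same in both genotypes. Col11a1 read 9.61, 9.67 and 9.66 at P18 in Tg1MDW/1MDW and from 9.92 to 10.72 over the 5 arrays of P5. Replicates 1 and 2 of P5 lay above the other 3. Col11a1 changed by -0.60 in Tg1MDW/1MDW (adjusted p = 0.023) and by -0.45 in WT (adjusted p = 0.081). Col11a2 changed by -0.49 in Tg1MDW/1MDW (adjusted p = 0.043) and by -0.42 in WT (adjusted p = 0.083). The difference between the genotypes was not called for either. With quantile normalization repeated, Col11a1 was called lower in WT as well (-0.53, adjusted p = 0.036). Both calls in Tg1MDW/1MDW were lost without any 1 of P5 replicates 1 and 2 or P18 replicates 1 to 3 of Tg1MDW/1MDW (adjusted p of 0.052 to 0.064 for Col11a1 and 0.076 to 0.115 for Col11a2), and that of Col11a2 also without any 1 WT array of P18 (adjusted p = 0.052). Col27a1, a short fibril-forming chain of cartilage, averaged 7.86 ± 0.08 at P18 (SD, n = 3) and 9.16 ± 0.14 at P5 (SD, n = 5) in WT, a change of -1.31 (adjusted p = 3.43e-09 in the limma fit), and changed by -1.56 in Tg1MDW/1MDW.

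Col26a1, whose product is a secreted collagen-like protein, was lower by about the same amount in both genotypes. It read 7.63, 7.51 and 7.62 at P18 and 9.89, 10.03, 10.28, 10.17 and 9.76 at P5 in Tg1MDW/1MDW (-2.44, standard error 0.10, adjusted p = 2.33e-11). In WT it read 7.61, 7.69 and 7.72 at P18 and 10.07, 10.10, 10.06, 10.22 and 10.18 at P5 (-2.45, adjusted p = 1.93e-11). The 5 WT arrays of P5 span little, so this gap is wide against the spread. Col14a1 and Col18a1 also passed the fold of at least 2 in both genotypes. Col14a1, which binds fibril surfaces in connective tissue, changed by -1.14 in Tg1MDW/1MDW (adjusted p = 2.49e-07) and by -1.70 in WT (adjusted p = 2.48e-09). Col18a1, a basement membrane collagen whose end fragment is endostatin, changed by -1.75 in Tg1MDW/1MDW (adjusted p = 7.66e-07) and by -1.80 in WT (adjusted p = 5.22e-07).

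Col1a1 and Col5a2 were the fibril-forming genes called higher at P18, while Col1a2, the partner of Col1a1 in type I collagen, was not called. Col1a1 read 11.39, 11.44 and 11.41 in the P18-cochlea of Tg1MDW/1MDW, against 9.21, 9.87, 8.66, 8.97 and 8.5 in the P5-OC (2.37, standard error 0.27, adjusted p = 2.4e-06). In WT it read 11.79, 11.89 and 11.87 at P18, against 9.24, 9.64, 8.53, 8.76 and 8.64 at P5 (2.89, adjusted p = 2.57e-07, or 7.41-fold). P18 arrays agreed closely and P5 arrays spread over more than 1 unit. Col1a2, the second chain of the same molecule, read 11.80, 11.86 and 11.82 at P18 and 11.81, 12.29, 11.54, 11.76 and 11.73 at P5 in WT, with groups that overlap and equal means (both 11.83), and was not called. In Tg1MDW/1MDW its change was 0.05 (adjusted p = 0.802). Col5a2, a chain of the type V collagen that starts type I fibrils, was higher at P18 by 0.61 in Tg1MDW/1MDW (adjusted p = 0.001) and by 0.60 in WT (adjusted p = 0.0012). Col3a1, the fibril of extensible tissues, read 9.17, 9.16 and 9.22 at P18 and 10.23, 10.30, 9.92, 9.90 and 9.77 at P5 in Tg1MDW/1MDW (-0.84). In WT it read 9.18, 9.32 and 9.20 at P18 and 10.06, 10.35, 9.91, 10.02 and 10.10 at P5 (-0.86). Both were called, with groups that do not overlap. Col3a1 and Col5a2, which are neighbours in the genome, changed in opposite directions. Col24a1, a fibril chain of developing bone, was lower too (-0.71 in Tg1MDW/1MDW and -0.69 in WT). Of the 11 fibril-forming genes, 2 were higher in both genotypes, and 8 in Tg1MDW/1MDW and 4 in WT were lower.

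**Figure D2:**
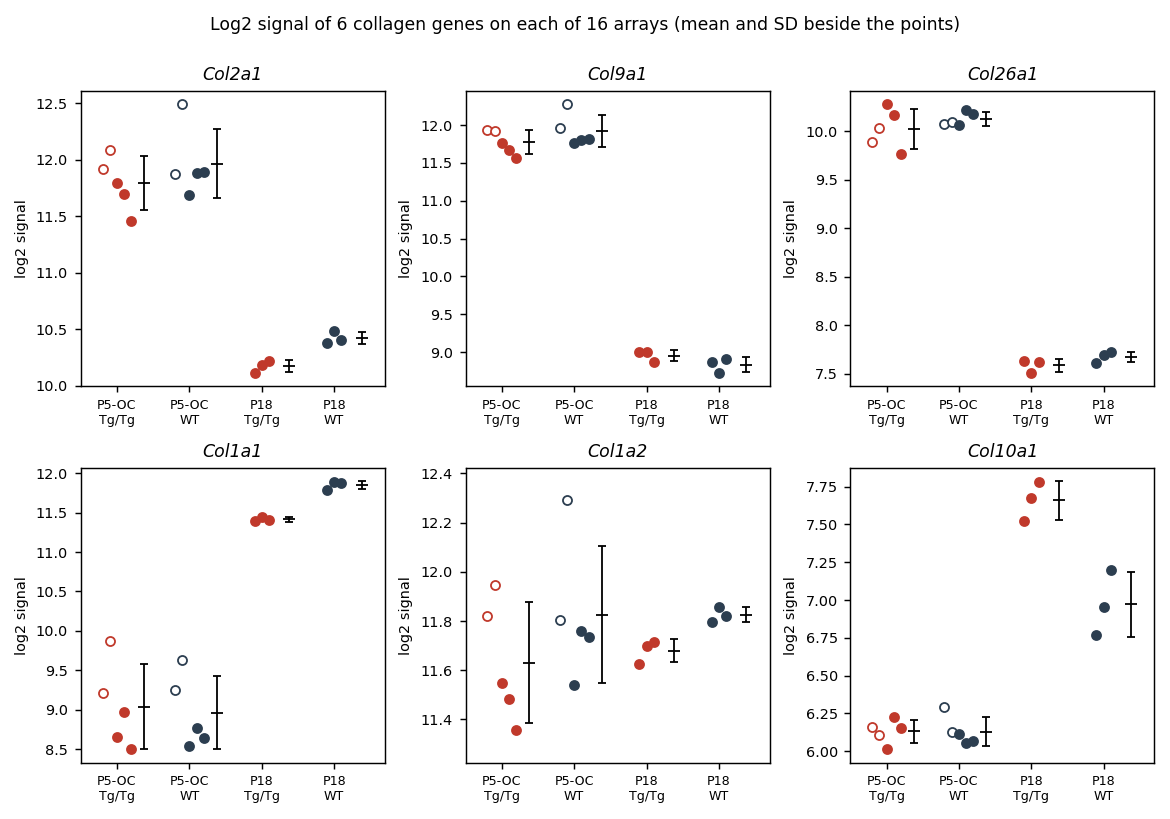
Log2 signal of 6 collagen genes on each array, by group, with open points for replicates 1 and 2 of P5 and the mean and SD drawn to the right of each group. The scale differs between panels and does not start at 0. Col2a1, Col9a1 and Col26a1 are lower at P18 and Col1a1 is higher, the P18 points of Col1a2 lie within the range of its P5 points, and the 3 Col10a1 points of Tg1MDW/1MDW at P18 (7.52 to 7.78) lie above the 3 of WT (6.77 to 7.20).

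All 3 network-forming genes were higher at P18 in both genotypes. Col10a1, the collagen of hypertrophic cartilage, changed by 1.53 in Tg1MDW/1MDW (adjusted p = 2.68e-09) and by 0.84 in WT (adjusted p = 2.14e-06). Col8a1, a lattice collagen of vessels and membranes, changed by 0.59 in Tg1MDW/1MDW (adjusted p = 0.0096) and by 0.45 in WT (adjusted p = 0.041). Col8a2, its partner chain, changed by 0.36 in Tg1MDW/1MDW (adjusted p = 0.026) and by 0.38 in WT (adjusted p = 0.021). The WT groups of Col8a1 and Col8a2 overlap. After quantile normalization was repeated on the deposited values, Col8a1 was no longer called in WT (0.39, adjusted p = 0.056).

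The changes of the 6 type IV genes were all negative in both genotypes, and 3 of the 6 were called. Col4a1 and Col4a2, the pair found in nearly every basement membrane, changed by -0.54 and -0.79 in Tg1MDW/1MDW and by -0.43 and -0.79 in WT. They start next to each other on opposite strands, and their promoter windows share 78 bases. Col4a5, a chain mutated in Alport syndrome with its kidney and hearing loss, read 6.39, 6.46 and 6.52 at P18 and 7.45, 7.5, 7.14, 7.26 and 7.18 at P5 in Tg1MDW/1MDW (-0.85). In WT it read 6.49, 6.57 and 6.44 at P18 and 7.57, 7.38, 6.96, 7.07 and 6.97 at P5 (-0.69). Both groups lie apart. The chains that join it in mature basement membranes were not called: Col4a3 changed by -0.60 in Tg1MDW/1MDW (adjusted p = 0.058) and by -0.53 in WT (adjusted p = 0.099), and Col4a4 by -0.27 and -0.18. Col4a3 read 6.78, 6.90 and 6.99 at P18 and 7.92, 7.93, 7.14, 7.08 and 7.0 at P5 in WT, so that 2 of its 5 P5 arrays carry most of the gap. Col4a6 changed by -0.31 in Tg1MDW/1MDW and by -0.24 in WT and was not called.

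Most type VI genes stayed uncalled, with Col6a1 at -0.09 in Tg1MDW/1MDW and -0.08 in WT and Col6a2 at -0.06 in Tg1MDW/1MDW and 0.12 in WT. Col6a6, a chain that can stand in for Col6a3, was lower in both genotypes (-1.06 in Tg1MDW/1MDW and -0.49 in WT) and Col6a3 in Tg1MDW/1MDW (-0.29, adjusted p = 0.044). Col6a4 and Col6a5 were not called as deposited (-0.34 and -0.28 in Tg1MDW/1MDW, 0.15 and 0.15 in WT), but both were called higher in WT with quantile normalization repeated (0.43 and 0.39). The second, dimmer Col6a5 probeset was called higher in WT as deposited, at 4.76 to 4.97 at P5 and 5.05 to 5.08 at P18. Both multiplexins were lower in both genotypes, Col18a1 as above and Col15a1, a collagen of the outer basement membrane of muscle and vessels, by -0.58 in Tg1MDW/1MDW and -0.66 in WT. Of the transmembrane collagens, Col23a1 was lower in both (-0.35 in Tg1MDW/1MDW and -0.28 in WT), as was Col25a1 (-0.38 in Tg1MDW/1MDW and -0.51 in WT). Col13a1, of muscle and nerve junctions, and Col17a1, of the hemidesmosomes that hold epithelium to its base, were not called as deposited and were called higher in WT with quantile normalization repeated (0.39 and 0.40).

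Of the 9 fibril-associated genes, 6 in Tg1MDW/1MDW and 5 in WT were lower, and Col22a1 was higher in WT. Beside type IX and Col14a1, Col16a1 was lower by -0.79 in Tg1MDW/1MDW and -0.65 in WT, and Col20a1 in Tg1MDW/1MDW alone (-0.34, adjusted p = 0.012). Col12a1, the close relative of Col14a1, was not called (0.34 in Tg1MDW/1MDW and 0.28 in WT). Col19a1 was not called as deposited (-0.19 in Tg1MDW/1MDW and 0.03 in WT) and was called higher in WT with quantile normalization repeated (0.32). Col28a1 was lower in both genotypes (-0.60 in Tg1MDW/1MDW and -0.34 in WT), though its WT call and that of Col23a1 were lost with that normalization, as were the Tg1MDW/1MDW calls of Col5a3 and Col20a1. Col7a1 was lower in Tg1MDW/1MDW (-0.66, adjusted p = 0.00049) and not called in WT (-0.20). Across the 44 genes, 5 were higher and 19 lower in both genotypes, 1 was called in WT alone (Col22a1, 0.57), 7 in Tg1MDW/1MDW alone and 12 in neither. None was called in opposite directions. A gene called in 1 genotype alone is not shown to differ between them, since the difference itself was called for Col10a1 alone.

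Genes that make, bind and break collagen were counted between the P18-cochlea and the P5-OC in the same way, against the 28.4% higher and 26.8% lower of named genes in Tg1MDW/1MDW and the 25% higher and 25.1% lower in WT. The total called in the folding list lies near the sum of these shares, but by direction it does not, since most of its calls were lower. The totals of the breakdown list and of the processing list lie above that sum in both genotypes. That of the receptors in Tg1MDW/1MDW lies below it. Of 22 measured genes of collagen folding and modification, 3 were higher and 11 lower in Tg1MDW/1MDW, and 1 was higher and 12 lower in WT. The lysyl hydroxylase gene Plod1 changed by -0.95 in Tg1MDW/1MDW and by -1.15 in WT. The prolyl hydroxylase gene P3h2 ran the other way, at 2.25 in Tg1MDW/1MDW and 2.14 in WT. Of 15 breakdown genes, 9 were higher and 4 lower in both genotypes. Mmp8, a collagenase of neutrophils, averaged 9.64 in Tg1MDW/1MDW and 9.62 in WT at P18, against 4.24 in Tg1MDW/1MDW and 4.45 in WT at P5. Mmp13, the collagenase of cartilage and bone, changed by 4.22 in Tg1MDW/1MDW and by 4.56 in WT. Of 11 genes of processing and crosslinking, 3 were higher and 6 lower in each genotype, with Loxl4 at 1.37 in Tg1MDW/1MDW and 1.63 in WT and Tll2 at -1.53 in Tg1MDW/1MDW and -1.44 in WT. Of 18 genes of collagen-binding matrix, 8 were higher in each genotype, and 3 in Tg1MDW/1MDW and 4 in WT were lower. Aspn, a small proteoglycan of fibrils, changed by 2.95 in Tg1MDW/1MDW and by 2.34 in WT. Of 9 receptors, 2 were higher in each genotype, and 1 in Tg1MDW/1MDW and 3 in WT were lower.

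Marker genes of several tissues were read between P18 and P5 against the same shares of named genes (28.4% higher and 26.8% lower in Tg1MDW/1MDW, 25% higher and 25.1% lower in WT). All 7 osteoblast markers were higher at P18 in both genotypes, with a list mean of 10.12 to 10.21 in Tg1MDW/1MDW and 10.16 to 10.23 in WT at P18, against 7.21 to 8.90 in Tg1MDW/1MDW and 7.44 to 8.5 in WT at P5. Tectorial membrane genes fell in 5 of 6 cases: Tecta changed by -5.41 in Tg1MDW/1MDW and by -4.82 in WT. The sixth, Ceacam16, changed by 5.25 in Tg1MDW/1MDW and by 5.33 in WT. Of the 10 chondrocyte markers, 3 were higher and 5 lower in Tg1MDW/1MDW, and 3 higher and 4 lower in WT, with Acan at 1.39 in Tg1MDW/1MDW and 1.08 in WT and Matn1 at -1.66 in Tg1MDW/1MDW and -1.72 in WT. Of the 10 hair cell markers, 1 was higher and 7 lower in each genotype. The part of these tissues in the collagen changes was not tested.

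Between Tg1MDW/1MDW and WT at P18, Col10a1 was the only collagen called. It read 7.52, 7.68 and 7.78 in Tg1MDW/1MDW cochleae, against 6.77, 6.95 and 7.20 in WT cochleae. Every Tg1MDW/1MDW array lies above every WT array, and the change was 0.69 (standard error 0.11, adjusted p = 0.0055), or 1.61-fold. That is 1 of 44 collagens, where 0.443% of all probesets were called (0.383% higher and 0.0604% lower). No collagen reached a fold of 2. At P5 Col10a1 was not called. It read 6.16, 6.11, 6.01, 6.23 and 6.15 in Tg1MDW/1MDW and 6.29, 6.13, 6.11, 6.05 and 6.07 in WT (0.00, adjusted p = 0.994). The genotype effect differed between the ages by 0.69 (standard error 0.14, adjusted p = 0.029), where 0.596% of all probesets were called (0.541% higher and 0.0547% lower). That difference was called in 16 of 24 fits and had an adjusted p of 0.0094 to 0.119 over them. It was not called without Tg1MDW/1MDW replicate 1 (adjusted p = 0.051) or 5 (adjusted p = 0.052) of P5, Tg1MDW/1MDW replicate 2 (adjusted p = 0.098) or 3 (adjusted p = 0.119) of P18, or WT replicate 1 (adjusted p = 0.103) or 2 (adjusted p = 0.091) of P18. With the level of Y-linked genes, which is unbalanced between the genotypes at P5, as a covariate it was 0.73 and not called (adjusted p = 0.073). The effect at P18 was called in 24 of 25 fits and missed the threshold when the P18 arrays were fitted alone (standard error 0.12, adjusted p = 0.063). Fits that left out or adjusted P5 arrays could not change this effect, only its standard error. The fit over 16 arrays takes in the narrow P5 spread of Col10a1. Without any 1 P18 array the adjusted p ran from 0.0019 to 0.049.

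Values of a neighbouring gene and of other tissues at P18 stand beside this. Col10a1 lies inside Nt5dc1 in the annotation, and the probeset of Nt5dc1 averaged 8.09 ± 0.07 in Tg1MDW/1MDW and 7.85 ± 0.08 in WT at P18 (SD, n = 3 each), a change of 0.24 (adjusted p = 0.471 in the limma fit). Its P18 arrays did not overlap, at 8.04 to 8.17 in Tg1MDW/1MDW and 7.78 to 7.93 in WT. Of named genes, 18.1% did so with Tg1MDW/1MDW higher. At P5 the change of Nt5dc1 was -0.05. Skeletal muscle genes stood apart at P18: their mean over 17 genes was 7.81 to 7.86 in Tg1MDW/1MDW and 5.96 to 5.98 in WT, and 15 of the 17 were called higher. The osteoclast list was lower, at 7.52 to 7.66 in Tg1MDW/1MDW and 7.82 to 7.97 in WT, with none of its 7 genes called. The osteoblast list read 10.12 to 10.21 in Tg1MDW/1MDW and 10.16 to 10.23 in WT, and none of the 10 chondrocyte genes was called. Whether muscle or bone in the dissection had a part in the Col10a1 result was not tested.

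The other collagens leaned the opposite way at P18 without passing the test. Of the 44 changes, 35 (79.5%) were negative, against 55.4% of all probesets and 54.6% of named genes, with a median of -0.14 against -0.02 over all probesets. The arrays of 22 collagens did not overlap with Tg1MDW/1MDW lower, and those of 3 did not overlap with Tg1MDW/1MDW higher (Col10a1, Col8a1 and Col14a1), where 13.6% and 14% of all probesets did so (15.9% and 18.1% of named genes). Col1a1 read 11.39, 11.44 and 11.41 in Tg1MDW/1MDW and 11.79, 11.89 and 11.87 in WT, a change of -0.44 (adjusted p = 0.776). Its P18 arrays lie close together, but the fit over 16 arrays takes in the wide P5 spread. With the P18 arrays fitted alone, Col1a1 (adjusted p = 0.035) and Col6a3 (adjusted p = 0.049) were called lower, where 1.37% of all probesets were called (1.12% higher and 0.242% lower).

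**Figure D3:**
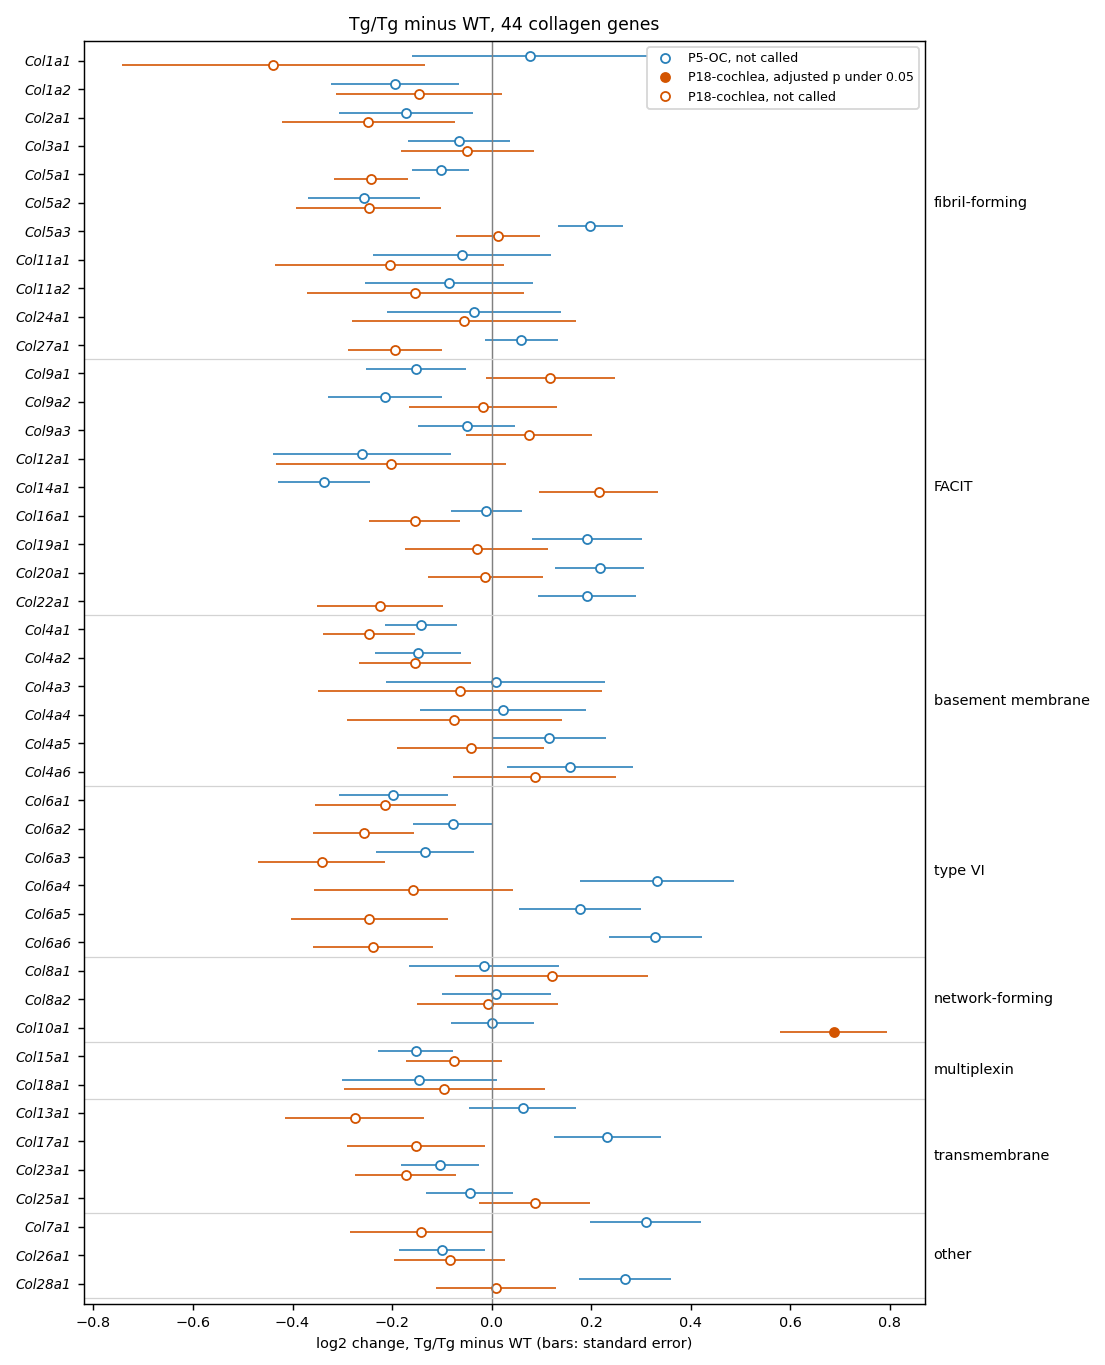
Log2 change of the 44 collagen genes, Tg1MDW/1MDW minus WT, by class, in the P5-OC (blue) and the P18-cochlea (orange), with bars of 1 standard error and a filled point at an adjusted p under 0.05. The 1 filled point is Col10a1 at P18 (0.69), and all 6 type VI points of P18 lie left of 0.

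By class, the 6 type VI changes at P18 ran from -0.34 to -0.16, and the arrays did not overlap in 5 cases. Col6a3, the chain that reaches furthest out of the type VI filament, read 7.76, 7.76 and 7.75 in Tg1MDW/1MDW and 8.03, 8.11 and 8.15 in WT (-0.34, adjusted p = 0.403 over 16 arrays). Col6a2 averaged 7.68 ± 0.04 in Tg1MDW/1MDW and 7.93 ± 0.01 in WT (SD, n = 3 each), a change of -0.26 (adjusted p = 0.455 in the limma fit). In 10 of 11 fibril-forming genes the change was negative, and 8 did not overlap. Col5a1, which shares fibrils with type I, read 7.46, 7.39 and 7.45 in Tg1MDW/1MDW and 7.65, 7.73 and 7.65 in WT (-0.24, adjusted p = 0.254). Col4a1 changed by -0.25 (adjusted p = 0.409) and Col27a1 by -0.19 (adjusted p = 0.59). Type IX did not follow: Col9a1 changed by 0.12, Col9a2 by -0.02 and Col9a3 by 0.07, with overlapping arrays in all 3.

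At P5 no collagen was called between Tg1MDW/1MDW and WT, where 0.610% of all probesets were called (0.0604% higher and 0.549% lower). In limma's test, 9 of the 44 had an unadjusted p under 0.05, as did 5700 of all 34760 probesets. Of the 44 changes, 25 (56.8%) were negative, against 53.3% of all probesets and 58.1% of named genes. The median was -0.04, against -0.01 over all probesets and -0.03 over named genes. Col14a1 had the smallest adjusted p and was the only collagen whose arrays did not overlap, which 1.29% of all probesets did with Tg1MDW/1MDW lower. It read 9.89, 9.85, 9.62, 9.76 and 9.64 in Tg1MDW/1MDW and 10.18, 10.41, 9.90, 9.95 and 10.01 in WT (-0.34, standard error 0.09, adjusted p = 0.132). At P18 it lay the other way, at 8.55, 8.62 and 8.65 in Tg1MDW/1MDW and 8.34, 8.46 and 8.38 in WT (0.22, adjusted p = 0.675). The difference of the 2 effects was 0.55 (adjusted p = 0.132). Col6a6 was at 8.15, 8.16, 7.93, 8.36 and 8.25 in Tg1MDW/1MDW and at 7.91, 7.86, 7.70, 7.98 and 7.74 in WT (0.33, adjusted p = 0.149), with 1 Tg1MDW/1MDW array among the WT ones. Its effect at P18 was -0.24, and the difference of the effects was -0.57 (adjusted p = 0.126). The second Col6a6 probeset ran from 6.15 to 6.81 in Tg1MDW/1MDW and from 6.09 to 6.67 in WT at P5. Col7a1, the anchoring fibril beneath epithelia, changed at P5 by 0.31, Col28a1 by 0.27, Col20a1 by 0.22 and Col5a3 by 0.20, with adjusted p between 0.200 and 0.263.

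Schwann cell genes marked the P5 arrays by genotype, with a mean over 9 genes of 7.27 to 7.76 in Tg1MDW/1MDW and 9.02 to 9.13 in WT and 8 of the 9 called lower. None of the 44 collagens was called beside them. Among the partners of collagens at P5, Tmem38b, a channel of the endoplasmic reticulum on which collagen modification depends, averaged 7.10 in Tg1MDW/1MDW and 7.57 in WT (-0.47, adjusted p = 0.014). Itgb1, the beta chain of the collagen-binding integrins, averaged 10.13 in Tg1MDW/1MDW and 10.56 in WT (-0.43, adjusted p = 0.028). The genotype effect on Tmem38b differed between the ages by 0.85 (adjusted p = 0.0059). No other gene of the 5 lists was called between genotypes at either age.

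The P5 arrays split by replicate number in a way that many collagens shared. In 15 of the 44 genes, all 4 arrays of replicates 1 and 2, of both genotypes, lay above all 6 arrays of replicates 3 to 5, and in 1, Col18a1, they lay below, against 2.18% and 2.74% of all probesets. Col4a3 ran from 7.85 to 7.97 on replicates 1 and 2 and from 6.91 to 7.27 on replicates 3 to 5, a mean difference of 0.83. Col1a1 had a difference of 0.81, Col11a1 of 0.65 and Col4a4 of 0.61, while Col18a1 had a difference of -0.52.

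**Figure D4:**
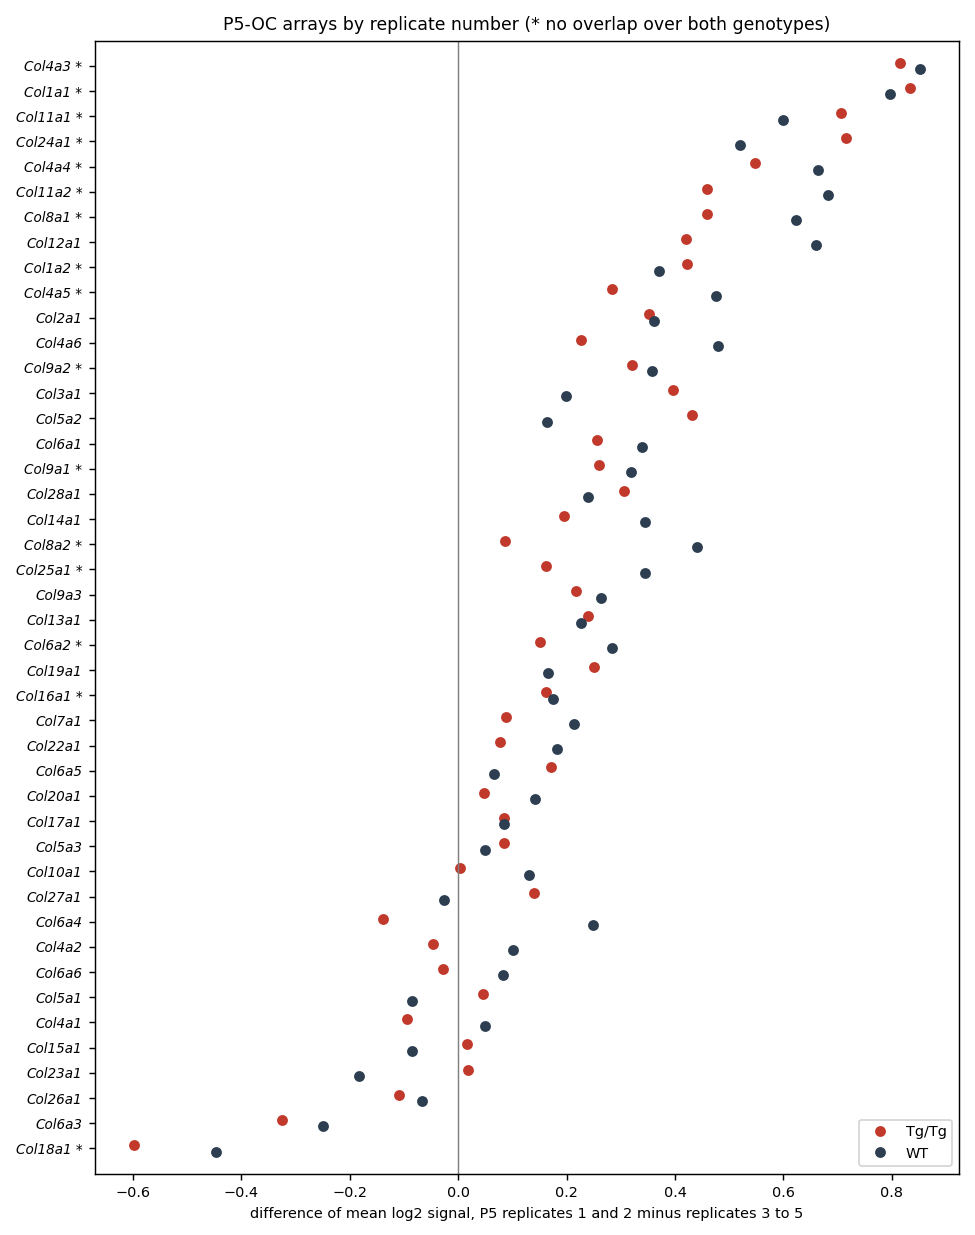
Difference of the mean log2 signal between replicates 1 and 2 and replicates 3 to 5 of the P5-OC, for each collagen, in Tg1MDW/1MDW (red) and WT (dark). An asterisk marks genes whose 10 arrays do not overlap. Both genotypes show the same direction for the genes at the top, led by Col4a3 (0.83 over both) and Col1a1 (0.81 over both).

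Osteoblast genes split the same way: their mean was 8.60 and 8.90 on replicates 1 and 2 and 7.21 to 7.35 on replicates 3 to 5 in Tg1MDW/1MDW, and 8.5 and 8.42 on replicates 1 and 2 and 7.44 to 7.65 on replicates 3 to 5 in WT. Supporting cell genes split the other way. Over both genotypes their mean was 9.42 to 9.51 on replicates 1 and 2 and 9.66 to 9.79 on replicates 3 to 5. So did tectorial membrane genes, at 10.11 to 10.39 on replicates 1 and 2 and 10.47 to 10.64 on replicates 3 to 5. The labels name no batch for these numbers, and the part of any of these tissues in the split was not tested. The split crosses genotype, with 2 arrays of each on 1 side. With the split as a covariate, Col14a1 was called lower at P5 (-0.34, adjusted p = 0.018) and its genotype effect differed between the ages (0.55, adjusted p = 0.016). Without replicates 1 and 2 of P5, Col10a1 was still called at P18 (0.69, adjusted p = 0.021), but not its difference between the ages (0.63, adjusted p = 0.106).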

How the data were processed

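RNA was kept in RNAlater, purified on Qiagen columns, labelled with biotin and hybridised to Affymetrix MoGene 1.0 arrays. The authors deposited 1 normalized log2 signal per probeset and array, from 2.09 to 13.72 with none missing, for 34760 probesets; the background correction and normalization are not given in the sources used here. The platform table gave 1 symbol to 21640 probesets and several to 1321, and only the first were named. The number of arrays, 5 or 3 a group, limits the precision.

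A linear model of 4 group means over 16 arrays was fitted with limma 3.58.1 (R 4.3.3) and empirical Bayes variances (12 residual and 3.23 prior degrees of freedom), with Benjamini-Hochberg adjustment over all probesets. Contrasts were Tg1MDW/1MDW minus WT at each age, their difference, and P18 minus P5 in each genotype. The script was tested on simulated data. Figures used matplotlib 3.10.9 (Python 3.11.15). Full values were planned for the 6 collagens with the smallest adjusted p per genotype contrast. The plan also took the largest changes past 2-fold between P18 and P5, and a list of chains of cartilage, bone and basement membrane. From the pathway lists it took the 3 smallest adjusted p per contrast. Only a selection of these values is printed. Other genes named in the text were picked with their values in view. The planned likeness to Col2a1 is not given, since the arrays separate by age. Members and lists were chosen with earlier results of these data known. Alternatives were a replicate block, separate fits, a filter on dim probesets, repeated quantile normalization, robust variances, array weights, a Y-linked covariate, other probesets of a gene and leaving out each array.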

Additional observations from a re-analysis of the deposited data

Results flagged for a closer look

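Of 88 sets of 5 P5 arrays, 1 per collagen and genotype, 4 had a sample far from the others by Dixon's test, which chance gives in about 1 in 20. Col19a1 was low on replicate 3 of Tg1MDW/1MDW, at 5.0 where the other 4 arrays read 5.47 to 5.65. Col15a1 was low on replicate 4 of Tg1MDW/1MDW, at 8.45 where the others read 8.49 to 8.51. Col2a1 was high on replicate 2 of WT, at 12.49 where the others read 11.69 to 11.90. Col23a1 was low on replicate 2 of WT, at 7.47 where the others read 7.75 to 7.85.

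The genotype effect on Col10a1 differed between the P18-cochlea and the P5-OC, by 0.69 in the test of the difference itself (adjusted p = 0.029 in the limma fit).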

How the results depend on the processing

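Of the collagens planned for full values, none reversed its direction past the threshold in any alternative. The partner genes were not put through the alternatives. At P5, array weights gave 2 collagen calls (Col28a1 and Col7a1, higher) where the fit reported gave 0, and leaving out each array gave 0 to 4 (4 without Tg1MDW/1MDW replicate 3: Col20a1, Col6a4, Col6a6 and Col7a1, higher). At P18, separate fitting gave 2 calls, array weights 6 (1 higher, 5 lower) and a fold of at least 2 gave 0, against 1, and leaving out each array gave 1 every time. For the difference of the effects, array weights gave 9 calls and the Y-linked covariate 0, against 1, and leaving out each array gave 0 to 2. With a fold of at least 2, 9 of 25 calls between P18 and P5 stood in WT and 11 of 31 in Tg1MDW/1MDW; leaving out each array gave 22 to 27 in WT and 27 to 35 in Tg1MDW/1MDW. The causes were not tested. Chosen after seeing the data, the P5 replicate split as a covariate gave 1 call at P5 and 2 for the difference, and leaving out P5 replicates 1 and 2 gave 0 for the difference. Separate fits exist only within an age. The dim filter kept 37 collagens, so low signal limits the other 7.

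The labels do not say that replicate numbers pair the samples, and not every pair deviated together, so the samples were not treated as paired. Residuals of same-numbered arrays correlated at 0.29, 0.36, -0.11, 0.20 and -0.22 for replicates 1 to 5 of P5 and at 0.00 to 0.07 at P18. Replicates 1 and 2 of P5 and 1 of P18 matched their own number best, a hint from the data and not from the design. With a replicate block within an age, 0 collagens were called at P5, 1 at P18 and 1 for the difference. A second model had a block by replicate number shared by both ages, though the labels do not link these numbers across ages. It gave 30 calls between P18 and P5 in Tg1MDW/1MDW and 26 in WT.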
